A study of Mus musculus and Homo sapiens
Mus musculus with 14 samples.

Results

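The outer nuclear layer (ONL) and the bipolar cell layer (BCL) of the mouse retina were compared gene by gene, to describe the functions and gene families that part photoreceptors from bipolar cells and Müller glia beyond the cell type markers. The ONL holds the nuclei of rods and cones. The BCL, as drawn in the study, holds bipolar cells, horizontal cells and Müller glia. Both layers were barcoded in 4 sections of the retina, so the comparison rests on 8 libraries, 4 per layer, of the 12 layer libraries and of 14 samples in the whole series. Genes were kept when they had at least 20 unique molecular identifiers (UMIs, 1 for each captured cDNA) summed over the 8 libraries. That left 9962 genes out of 21083 with at least 1 UMI in them.

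All libraries came from 1 wild-type CD1 mouse at postnatal day 18, with no treatment, transgene or mutant allele in either layer. In Light-Seq, cDNA is made in the fixed section and light joins a DNA barcode to it in the area that is drawn, so a library is the pooled RNA of every cell in that area. The sections were 18 µm thick, and the 2 libraries of a section carry the same section number, which paired them in the test. The sections are technical replicates of 1 animal, so each p-value below measures the spread between sections and not between animals. In such pooled RNA, fewer cells of a type and less RNA per cell cannot be told apart.

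Rods and cones turn light into an electrical signal in a stack of membrane discs, the outer segment, which is a modified cilium. Light activates an opsin, the opsin a G protein, and the G protein a phosphodiesterase that lowers cyclic GMP and closes a cation channel. The cell then releases less glutamate from its ribbon synapse. ON bipolar cells read that fall through the receptor mGluR6, whose G protein closes the channel TRPM1, whereas Müller glia span the retina and take up glutamate, potassium and water.

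Levels are given as CPM, the UMI count of a gene scaled to a common total over the genes tested after TMM normalisation, in the order of sections 1, 2, 3 and 4. A log2 fold change is the ONL minus the BCL on the log2 scale, with its standard error after ±, so it is positive where the ONL was higher. A gene was called higher in a layer at an adjusted p below 0.05. Other values after ± are standard deviations over 4 sections. The ONL libraries held 801105, 722893, 438059 and 310228 UMIs and the BCL libraries 193869, 208437, 196794 and 202274 UMIs. Low levels were therefore measured less precisely in the BCL, whose libraries were shallower.

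Of the 9962 genes, 1737 were called higher in the ONL (17.4% of genes tested) and 2064 higher in the BCL (20.7%). These 2 shares are the background for every list that follows. The median log2 fold change was 0.02 over all genes, 1.18 over the genes called in the ONL and -1.70 over those called in the BCL. More than a 2-fold difference was reached by 1031 of the ONL genes and 1671 of the BCL genes, and more than an 8-fold difference by 47 and 215. When libraries were scaled by their totals alone, the median of all genes shifted by -0.23, and the calls became 1178 in the ONL and 2593 in the BCL, so 31.2% of calls were then in the ONL in place of 45.7%. Directions below are relative to the TMM scaling.

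The defining markers of the layers followed the labels in each section. Crx, the homeobox factor that photoreceptors need to express their genes (chr7:15599872-15613893, GRCm39), was at 2858, 3587, 3559 and 3424 CPM in the ONL and 788, 891, 1115 and 726 CPM in the BCL. Trpm1, the transduction channel of ON bipolar cells (chr7:63803583-63922019), was at 149.7, 101, 99.8 and 183 CPM in the ONL and 1743, 1922, 1921 and 1775 CPM in the BCL. Glul, the glutamine synthetase of Müller glia (chr1:153775690-153785469), was at 698, 396, 469 and 729.7 CPM in the ONL and 4058, 4326, 4366 and 4604 CPM in the BCL. The layers did not overlap for any of these 3 genes, and within the ONL both Trpm1 and Glul were higher in sections 1 and 4 than in sections 2 and 3. Their log2 fold changes were 1.94 ± 0.11, -3.82 ± 0.13 and -2.95 ± 0.12, with adjusted p of 3.52e-24, 8.48e-35 and 2.18e-31.

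Neither layer was free of the other's markers. The 12 rod markers took 6.89, 8, 8.35 and 8.29% of UMIs in the ONL and 1.52, 1.85, 2.44 and 1.71% in the BCL. The 12 bipolar markers took 0.121, 0.0978, 0.101 and 0.132% in the ONL and 0.776, 0.79, 0.701 and 0.724% in the BCL, and the 11 Müller glia markers 0.142, 0.0881, 0.0911 and 0.149% and 0.818, 0.812, 0.777 and 0.881%. Section 3 had the highest rod share in the BCL, and sections 1 and 4 had the highest bipolar and glial shares in the ONL. These shares move with many of the lists below, and their part in the fold changes was not tested. Markers of 2 further cell types also went with the BCL. All 6 tested horizontal cell markers were called there, at a summed share of 0.0769% to 0.104% against 0.00822% to 0.0174% in the ONL. Of the 7 tested endothelial and pericyte markers 5 were called there, at 0.112% to 0.121% against 0.0089% to 0.0215%, although the defining endothelial markers Cldn5, Pecam1 and Cdh5 had 3, 7 and 13 UMIs in the whole BCL. Ganglion cell markers took 0.0609% ± 0.0211% in the ONL and 0.0611% ± 0.0114% in the BCL, with 0 of 10 tested markers called. Of the 10 tested amacrine markers 1 was called in the ONL and 3 in the BCL, and of the 4 tested pigment epithelium markers 3 were called in the ONL and 0 in the BCL. The amacrine list took 0.0498% to 0.0896% of UMIs in the ONL and 0.106% to 0.155% in the BCL, and the pigment epithelium list 0.0158% to 0.0213% and 0.00762% to 0.0119%, with Rpe65, the retinoid isomerase of that tissue, at a log2 fold change of 1.73 ± 0.43. The lists of astrocyte, microglia and red cell markers took at most 0.0106%, 0.0096% and 0.00288% of UMIs in any library, and none of their 6 tested genes was called.

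**Figure D1:**
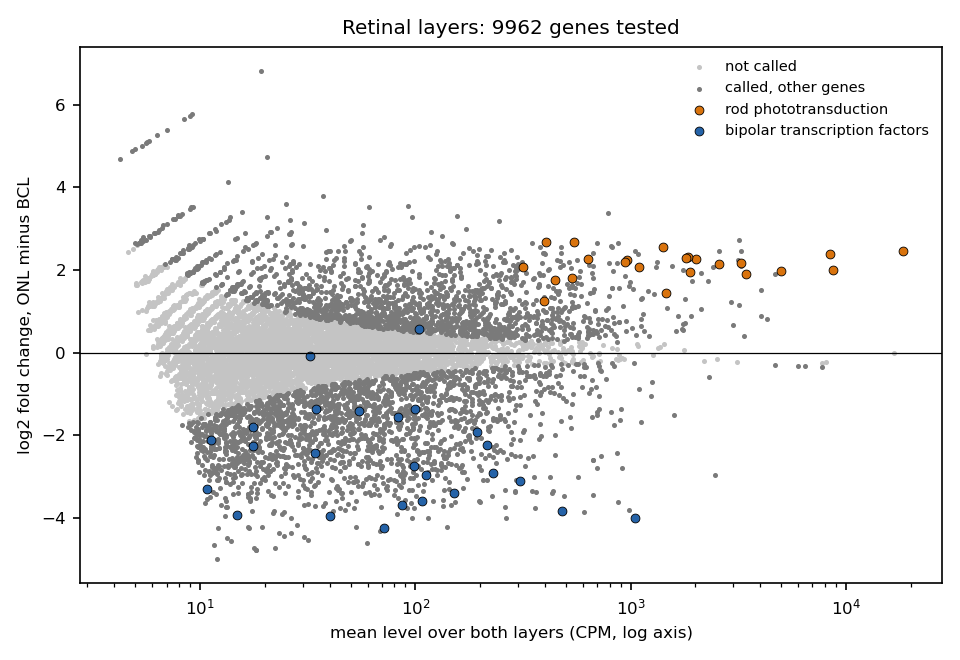
Log2 fold change (ONL minus BCL, vertical axis) against the mean level of each of the 9962 genes tested (CPM, log axis). Pale grey points were not called and darker grey points are other called genes. Rod phototransduction genes are orange and bipolar transcription factors blue. The rod genes lie in a band from 1.25 to 2.68 and the bipolar factors reach -4.25.

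The light response was the first function that parted the layers. All 23 tested genes of rod phototransduction were called in the ONL and 0 in the BCL, with a median log2 fold change of 2.17. Gnat1, the alpha subunit of rod transducin, was at 12181, 14438, 15031 and 14026 CPM in the ONL and 2579, 3649, 4883 and 3092 CPM in the BCL. Sag, the arrestin that shuts off the activated rod pigment, was at 10970.2, 13774, 15894 and 15789.7 CPM in the ONL and 2132, 2518, 3509 and 2722 CPM in the BCL. Each ONL section was above each BCL section for both genes, and BCL section 3 was the highest of the BCL. The log2 fold change of Sag was 2.38 ± 0.11.

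The rest of the rod cascade gave similar sizes. The transducin subunits had log2 fold changes of 2.003 ± 0.11 for Gnat1 (alpha), 1.98 ± 0.11 for Gnb1 (beta) and 1.75 ± 0.14 for Gngt1 (gamma). The subunits of the rod phosphodiesterase were at 2.15 ± 0.11 for Pde6a, 2.27 ± 0.11 for Pde6b and 1.90 ± 0.10 for Pde6g, and the cyclic nucleotide-gated channel at 2.68 ± 0.15 for Cnga1 and 2.06 ± 0.12 for Cngb1. Genes that end or tune the response followed: Grk1, the kinase of the activated rod pigment, at 2.56 ± 0.12, and Guca1b, which activates guanylate cyclase when calcium is low, at 2.67 ± 0.15. Over the 23 genes the mean BCL level was 15.8% to 41.8% of the ONL level, with a median of 22.4%. The gene least parted was Gnb5, a beta subunit that partners RGS proteins in bipolar cells as well, at 1.25 ± 0.13.

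Genes of cones, which are few in the mouse, were mostly called in the ONL as well. Of 12 tested genes 10 were called in the ONL and 2 in the BCL, with a median log2 fold change of 2.55. Opn1sw, the short-wavelength opsin, was at 1326, 1845, 1738 and 799 CPM in the ONL and 110.4, 155, 209 and 74.0 CPM in the BCL. Arr3, the cone arrestin, was at 168, 231, 192 and 111 CPM in the ONL and 9.6, 13.6, 34.8 and 13.9 CPM in the BCL. Both were lowest in section 4 within the ONL and highest in section 3 within the BCL, without overlap between layers. The log2 fold changes were 3.39 ± 0.14 for Opn1sw, 3.56 ± 0.29 for the middle-wavelength opsin Opn1mw and 3.29 ± 0.28 for Arr3. Each was above the 2.68 of the highest rod gene, as were 84 genes called in the ONL in all. Pde6h, the inhibitory subunit of the cone phosphodiesterase, was at 2.71 ± 0.36, and Gnat2, the cone transducin, at 2.19 ± 0.27. The difference between rod and cone genes was not tested. By summed UMI share the cone list was 3.75 times as high in the ONL as in the BCL and the rod list 3.94 times. The cone list includes Kcnv2, at 1401 CPM in the ONL, and 2 genes called in the BCL. The separate lists of cone and rod markers were 7.66 and 4.19 times as high in the ONL. The 2 cone genes called in the BCL are used by bipolar cells too: Gnb3, a beta subunit, at -0.45 ± 0.15, where the layers overlapped, and Slc24a2, an exchanger of sodium for calcium and potassium, at -0.50 ± 0.19. Neither call held with DESeq2 (adjusted p = 0.142 and 0.245), and the call of Gnb3 was lost without section 4 (adjusted p = 0.195) and that of Slc24a2 without section 2 (0.311) or 3 (0.121).

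Retinoid handling split by cell type. Of 15 tested genes 8 were called in the ONL and 3 in the BCL. The dehydrogenases Rdh12 and Rdh8 and the flippase Abca4, which clear all-trans retinal in photoreceptors, had log2 fold changes of 2.42 ± 0.14, 2.15 ± 0.18 and 2.07 ± 0.11. Rbp3, the carrier secreted into the space around the outer segments, was at 1.91 ± 0.11, and Dhrs3, a retinal reductase, at 2.31 ± 0.15. Rlbp1, the retinaldehyde-binding protein of Müller glia, went the other way at 201, 164, 146 and 269.7 CPM in the ONL and 1143, 1227, 1115 and 1114 CPM in the BCL. No ONL section reached a BCL section for Rlbp1, whose log2 fold change was -2.60 ± 0.12.

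Short stretches of sequence before the start sites of 3 rod genes and of 1 bipolar gene are shown because they hold TAATCC, the core that the homeodomains of CRX and OTX2 bind, on either strand (as GGATTA on the other). Each is the 120 bases upstream of the start of the canonical GENCODE transcript on GRCm39, 5′ to 3′ on the gene's strand, with the core in capitals.
Sag (chr1:87731282-87731401, plus strand): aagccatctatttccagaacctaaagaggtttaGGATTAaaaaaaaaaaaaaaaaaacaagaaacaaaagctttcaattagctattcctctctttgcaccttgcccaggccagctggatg
Gngt1 (chr6:3993672-3993791, plus strand): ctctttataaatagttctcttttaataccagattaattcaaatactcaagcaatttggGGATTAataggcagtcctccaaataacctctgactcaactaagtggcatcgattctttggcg
Pde6g (chr11:120344327-120344446, minus strand): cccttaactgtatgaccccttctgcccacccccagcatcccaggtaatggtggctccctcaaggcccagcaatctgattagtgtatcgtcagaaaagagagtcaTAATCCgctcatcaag
Cabp5 (chr7:13131937-13132056, plus strand): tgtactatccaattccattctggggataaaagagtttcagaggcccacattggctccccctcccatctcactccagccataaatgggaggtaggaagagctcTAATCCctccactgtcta
The core begins 87 bases before the start of Sag, 62 before that of Gngt1, 16 before that of Pde6g and 18 before that of Cabp5.

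In windows from 250 bases before to 50 bases after the start, TAATCC was found in 9 of 23 promoters of the rod phototransduction list (39.1%), 4 of 12 of the cone list (33.3%), 6 of 22 of the outer segment list (27.3%) and 2 of 18 of the photoreceptor transcription factors (11.1%). Among all genes tested it was in 728 of 9924 promoters (7.3%), among those called in the ONL in 154 of 1732 (8.9%) and among those called in the BCL in 111 of 2055 (5.4%). Lists of the BCL held it too, in 8 of 39 promoters of Müller glia supply genes (20.5%), 4 of 20 of the mGluR6 complex (20%) and 1 of 25 of the bipolar transcription factors (4.0%). The GC box GGGCGG was in 5871 of 9924 promoters in all (59.2%) and in a smaller share of each of these lists of both layers. This did not extend to all genes called in the ONL, where it was in 1090 of 1732 promoters (62.9%). Among genes called in the BCL it was in 1165 of 2055 (56.7%). It was in 7 of 23 rod promoters (30.4%), 0 of 12 cone promoters, 4 of 22 outer segment promoters (18.2%) and 7 of 18 promoters of photoreceptor factors (38.9%). For the BCL it was in 12 of 39 Müller glia supply promoters (30.8%), 8 of 20 of the mGluR6 complex (40%) and 13 of 25 of the bipolar factors (52%). The core TGCTGA of the site of MAF factors such as NRL was in 1480 of 9924 promoters in all (14.9%), 8 of 23 rod promoters (34.8%), 7 of 20 of the mGluR6 complex (35%), 6 of 25 of the bipolar factors (24%) and 8 of 39 of Müller glia supply (20.5%). The core TAATTA of other homeodomains was in 0 of 23 rod promoters, 0 of 20 of the mGluR6 complex, 3 of 22 of the outer segment (13.6%), 3 of 25 of the bipolar factors (12%), 50 of 2055 promoters of genes called in the BCL (2.4%) and 320 of 9924 in all (3.2%). All motifs were searched on both strands, TAATTA is the same on both, and it can overlap TAATCC by the letters they share. A match describes these letters only.

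**Figure D2:**
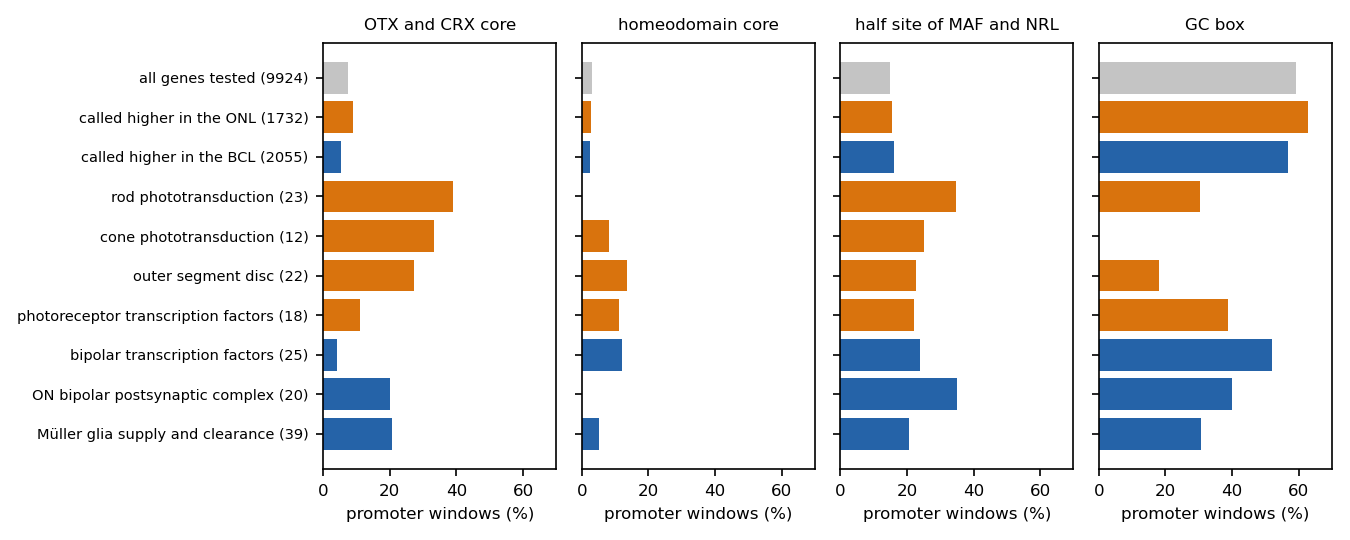
Share of promoter windows (percent, horizontal axis from 0) that hold each of 4 motifs, for all genes tested, genes called in either layer and 7 lists. TAATCC is in 39.1% of rod phototransduction windows, 20.5% of Müller glia supply windows and 7.3% of all windows, and GGGCGG in 30.4%, 30.8% and 59.2%.

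Structure followed the light response. Of the 22 tested genes of the outer segment disc and its axoneme 20 were called in the ONL and 0 in the BCL, with a median log2 fold change of 2.13. Prph2 and Rom1, the tetraspanins that bend the disc rims, were at 2.46 ± 0.11 and 2.10 ± 0.11, and Cdhr1 and Prom1, at the growing discs, at 2.23 ± 0.12 and 1.99 ± 0.13. Rp1, a microtubule protein of the axoneme, was at 4685, 5706, 5883 and 5830.4 CPM in the ONL and 807, 932, 951 and 642 CPM in the BCL. This was 2.73 ± 0.11 on the log2 scale, and Rp1l1, its relative, was at 2.66 ± 0.12. Of the 62 tested genes of ciliary transport and the transition zone 32 were called in the ONL and 3 in the BCL, with a median of 0.84. Examples were Bbs9, a subunit of the BBSome coat, at 1.81 ± 0.16, Cep290, of the transition zone, at 1.504 ± 0.23, and Cep164, of the basal body, at 2.17 ± 0.25. Ift88, a core protein of intraflagellar transport, was at 29.6 ± 10.7 CPM in the ONL and 21.4 ± 8.58 CPM in the BCL and was not called (adjusted p = 0.348). The 3 genes called in the BCL included Tulp3, which carries receptors into primary cilia, at -2.05 ± 0.41.

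Signal transduction used different members of the same families in the layers. Among 26 tested G protein subunits 7 were called in the ONL and 12 in the BCL. Gnao1, the alpha subunit that mGluR6 activates, was at 349.6, 212, 233 and 294 CPM in the ONL and 1369, 1499.7, 1558 and 1414 CPM in the BCL. Gng13, the gamma subunit of ON bipolar cells, had 4 UMIs in all ONL libraries and 40 in the BCL, with a log2 fold change of -4.44 ± 0.58, whereas Gngt1 was at 1.75. Gnai2, an inhibitory alpha subunit, was also higher in the BCL at -2.74 ± 0.14, and Gnaz, another member of that class, in the ONL at 1.47 ± 0.19.

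The regulators that switch G proteins off split in the same manner. Rgs9, which with Gnb5 and the anchor Rgs9bp ends the rod response, was at 1465, 1608, 1772 and 1342 CPM in the ONL and 245, 323, 533 and 282 CPM in the BCL. Rgs11, which acts on Gnao1 in ON bipolar cells, was at 19.9, 12.6, 10.2 and 3.46 CPM in the ONL and 125, 159, 134 and 176 CPM in the BCL. Both genes were without overlap between layers and in opposite directions, at 2.19 ± 0.12 and -3.45 ± 0.28. Rgs7, the partner of Rgs11, was at -2.21 ± 0.31, Rgs16 at -3.70 ± 0.43 and Rgs9bp at 1.81 ± 0.12. In all 4 of 15 tested members of the RGS list were called in the ONL and 8 in the BCL.

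Enzymes of cyclic nucleotides numbered 11 called in the ONL and 15 in the BCL out of 32. Beside Pde6 the ONL was higher for Gucy2e and Gucy2f, the membrane cyclases that restore cyclic GMP (2.24 ± 0.12 and 2.27 ± 0.13), for Adcy1 and Adcy6, which make cyclic AMP (1.67 ± 0.12 and 2.72 ± 0.29), and for Pde8b, which breaks it down (2.41 ± 0.26). The BCL was higher for Gucy1a1 and Gucy1b1, the alpha and beta subunits of the soluble cyclase that nitric oxide activates, at -2.44 ± 0.15 and -2.68 ± 0.26, and for the calmodulin-dependent Pde1b at -2.81 ± 0.21. Gucy1a1 was at 102, 67.7, 58.9 and 128 CPM in the ONL and 528, 464, 408 and 476 CPM in the BCL. Each BCL section was above each ONL section.

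**Figure D3:**
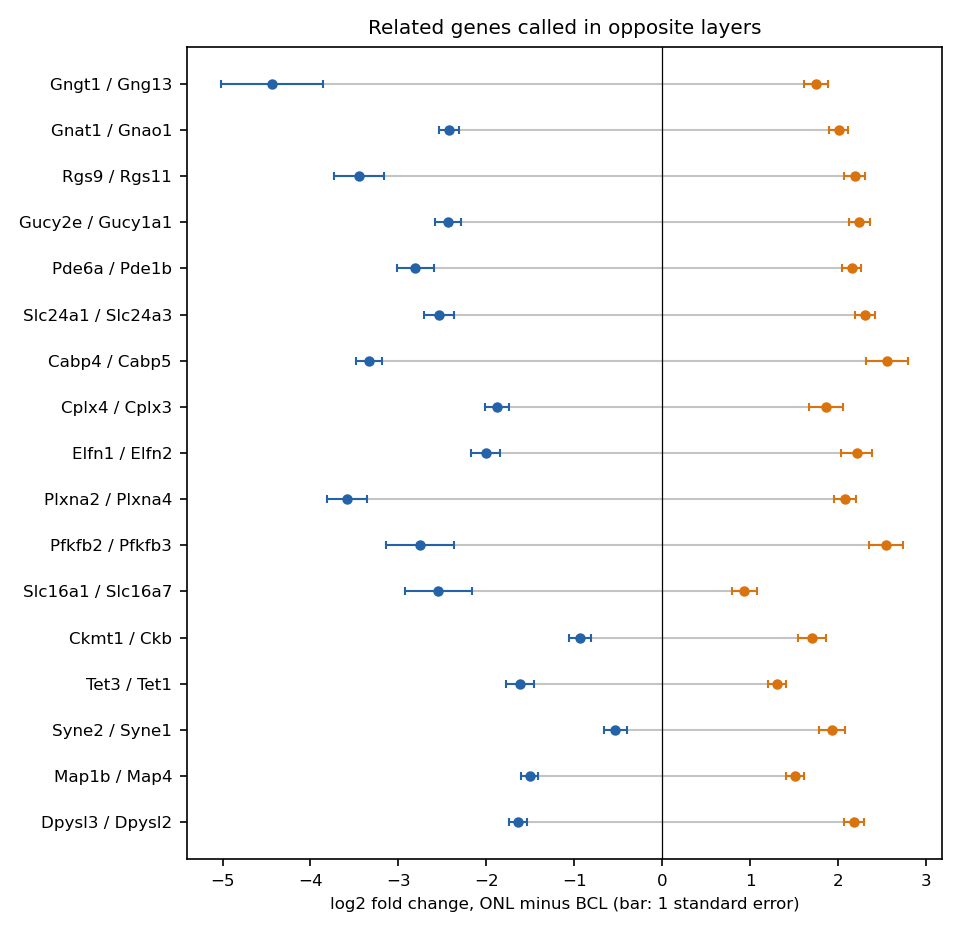
Log2 fold change (ONL minus BCL, horizontal axis; bars are 1 standard error) for related genes that were called in opposite layers, 1 pair a row, chosen from the genes named here after their values were seen. Orange points are called higher in the ONL and blue points higher in the BCL.

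Transcription factors divided along the same line. Of 18 tested factors of photoreceptors 14 were called in the ONL and 0 in the BCL, and of 25 of bipolar cells 1 was called in the ONL and 23 in the BCL, with medians of 2.01 and -2.75. Nrl and Nr2e3, which set the rod fate, were at 2.08 ± 0.11 and 2.42 ± 0.14. Casz1, a zinc finger factor of rods, was at 1120.5, 1540.2, 1493 and 1383 CPM in the ONL and 178, 254, 299 and 203 CPM in the BCL. Casz1 was lowest in section 1 of both layers and had a log2 fold change of 2.57 ± 0.12. Esrrb, a nuclear receptor of rods, was at 2.46 ± 0.12, Neurod1 at 1.56 ± 0.11 and Rax at 1.71 ± 0.28.

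Otx2, which acts in both cell classes, was at 458, 492, 484 and 543 CPM in the ONL and 495, 436, 513 and 467 CPM in the BCL. The layers overlapped, and its log2 fold change of 0.05 ± 0.11 was not called (adjusted p = 0.793) and turned to -0.18 with library totals alone. Neurod4, a helix-loop-helix factor of bipolar cells, was at 87.4, 42.5, 58.9 and 62.2 CPM in the ONL and 975, 932, 836 and 850.5 CPM in the BCL. Its log2 fold change of -3.84 ± 0.14 compares with -4.25 ± 0.33 for the homeobox factor Vsx1, -3.60 ± 0.24 for Isl1 and -3.40 ± 0.20 for Lhx4. The 1 bipolar factor called in the ONL was Meis2 at 0.56 ± 0.20. That call was lost with DESeq2 (adjusted p = 0.183), with library totals alone (0.204) and without section 1 (0.0879) or 2 (0.104).

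Glial factors and the Notch pathway were called in the BCL for 15 of 23 genes and in the ONL for 2. The receptors Notch1 and Notch2 were at -2.48 ± 0.21 and -2.07 ± 0.22, the target Hes1 at -2.71 ± 0.66 with 6 and 18 UMIs, Lhx2 at -2.70 ± 0.28, and Sox2, Sox8 and Sox9 at -2.90 ± 0.48, -3.76 ± 0.39 and -2.86 ± 0.25. Of the 8 tested Sox genes 7 were called in the BCL and 0 in the ONL. Jag1, a ligand of Notch receptors, was at 152, 164, 189 and 135 CPM in the ONL and 9.6, 22.7, 44.8 and 37.0 CPM in the BCL. It was thus higher in each ONL section than in any BCL section, at 2.50 ± 0.26.

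Genes of energy metabolism were called in both directions. Of 30 tested genes of glycolysis and lactate transport 10 were called in the ONL and 8 in the BCL (13 with library totals alone), and the median was -0.10. Hk2, the hexokinase that retina uses beside Hk1, was at 266, 304, 379 and 269.7 CPM in the ONL and 24.01, 27.3, 49.8 and 50.8 CPM in the BCL. Ldha, the lactate dehydrogenase subunit that favours lactate, was at 666, 881, 947 and 802 CPM in the ONL and 206, 286, 279 and 342 CPM in the BCL. Sections of the layers did not overlap for either gene, and the log2 fold changes were 3.00 ± 0.21 and 1.57 ± 0.12. Hk1 was at 0.87 ± 0.11, Pkm, the last enzyme of glycolysis, at 0.63 ± 0.11, and the lactate transporter Slc16a1 at 0.93 ± 0.14. The enzyme that sets fructose 2,6-bisphosphate, the activator of phosphofructokinase, came as Pfkfb2 in the ONL (2.54 ± 0.19) and as Pfkfb3 in the BCL (-2.75 ± 0.39). Pfkm was higher in the BCL at -1.27 ± 0.26, as were Slc16a7, a second lactate transporter, at -2.54 ± 0.38, and Pcx, the pyruvate carboxylase of glia, at -1.84 ± 0.34.

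Creatine kinase came as the mitochondrial Ckmt1 in the ONL and as the cytosolic Ckb in the BCL. Ckmt1 was at 352, 349, 358 and 284 CPM in the ONL and 101, 114, 109.5 and 87.8 CPM in the BCL. Ckb was at 192, 285, 228 and 287 CPM in the ONL and 418, 409, 548 and 532 CPM in the BCL. The directions were opposite in all 4 sections, at 1.70 ± 0.16 and -0.94 ± 0.12, and the creatine transporter Slc6a8 was at -1.61 ± 0.21. Glycogen enzymes went with the BCL where called, among them Gbe1, the branching enzyme, at -2.12 ± 0.26, and Pygb, a phosphorylase, at -1.15 ± 0.19.

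Nuclear housekeeping sets gave few calls, at shares below the background in each layer. Of 25 tested genes of the tricarboxylic acid cycle 3 were called in each layer, with a median that rounds to 0. Cytosolic ribosomal proteins had 0 and 1 calls of 23 tested, of 75 listed, mitochondrial ribosomal proteins 1 and 1 of 56, proteasome subunits 3 and 4 of 36, and nuclear subunits of the respiratory chain 6 in the ONL and 1 in the BCL of 70. Many ribosomal protein genes have near-identical copies, and reads that match several genes were discarded, so their levels are uncertain. Of the 7 tested protein genes of the mitochondrial genome 4 were called in the BCL (57.1%) at small sizes, such as mt-Co1 at -0.35 ± 0.10, and their share of UMIs was 3.14% ± 0.316% in the ONL and 4.43% ± 0.275% in the BCL.

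**Figure D4:**
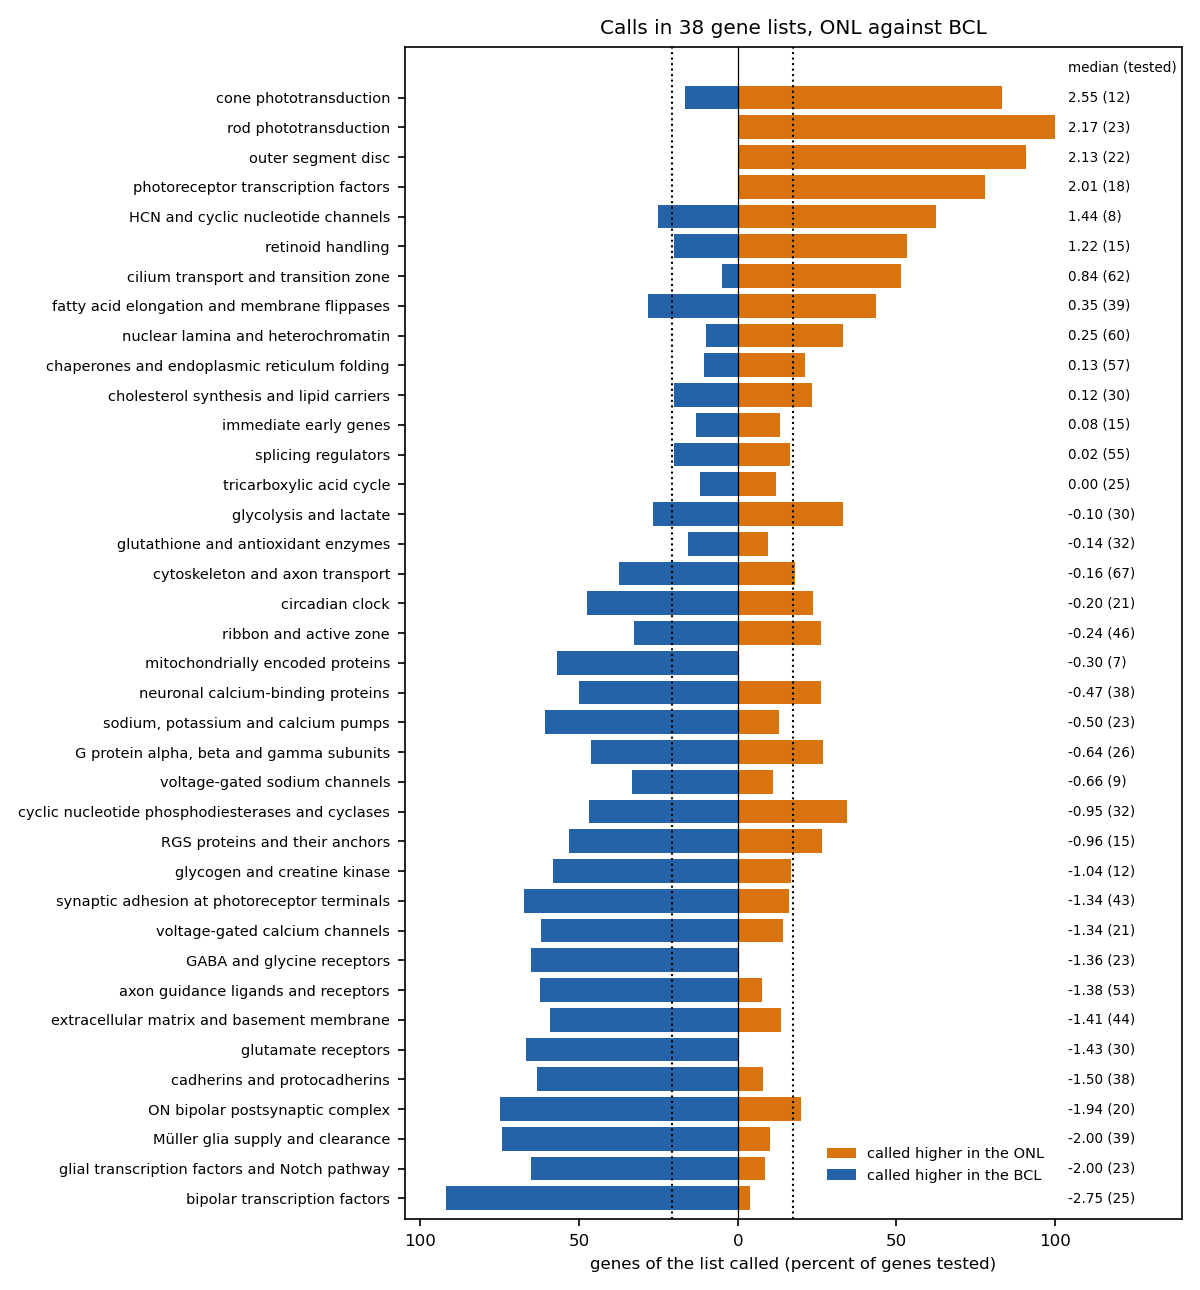
Percent of tested genes called in the ONL (orange, to the right) or the BCL (blue, to the left) for the 38 lists, ordered by the median log2 fold change, which is printed beside each bar with the number of genes tested. The dotted lines are the shares of all genes tested, 17.4% and 20.7%; no bar is a test of its list.

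Ion channels and pumps parted by subtype. Hcn4, a pacemaker channel, was at 19.9, 12.6, 17.9 and 10.4 CPM in the ONL and 120.1, 127, 154 and 148 CPM in the BCL. Each BCL section was above each ONL section, at -3.07 ± 0.27, and its relative Hcn3 was at -2.41 ± 0.42. Potassium channel genes were called in the BCL for 27 of 45 tested and in the ONL for 5. Those 5 included Kcnv2, a modifier subunit of the outward current of photoreceptors, at 2.57 ± 0.12, and Kcnj14 at 2.79 ± 0.29. Kcnma1, the calcium-activated BK channel, was at 241, 168, 143 and 142 CPM in the ONL and 1292, 1209, 1169.8 and 1211 CPM in the BCL. All its ONL sections were lower, and the log2 fold change was -2.79 ± 0.12, beside -3.70 ± 0.22 for the leak channel Kcnk3 and -3.74 ± 0.29 for the silent subunit Kcng4.

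Calcium channel genes were called in the ONL for 3 of 21 and in the BCL for 13. Cacna1f, the pore of the ribbon synapse channel in both cell classes, was at 478 ± 52.3 CPM in the ONL and 294 ± 19.7 CPM in the BCL (0.70 ± 0.12), and its beta subunit Cacnb2 at 1.62 ± 0.13. Cacna2d4, its extracellular subunit, was at -0.28 ± 0.11 with overlapping layers. Its call was lost with DESeq2 (adjusted p = 0.255), without the section block (0.0775) and when any 1 section was left out (0.0505 to 0.227). Cabp4, which tunes that channel in photoreceptors, was at 156, 199.8, 236 and 169 CPM in the ONL and 28.8, 45.4, 29.9 and 23.1 CPM in the BCL. Cabp5, its relative in bipolar cells, was at 62.2, 50.3, 41.0 and 51.9 CPM in the ONL and 581, 514, 433 and 592 CPM in the BCL. No section broke the opposite order of the 2 genes, whose log2 fold changes were 2.55 ± 0.24 and -3.33 ± 0.15. T-type channels were higher in the BCL, with Cacna1h at -3.08 ± 0.16 and Cacna1g at -2.80 ± 0.20.

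Of 23 tested pumps and exchangers 3 were called in the ONL and 14 in the BCL. Atp1b2, a beta subunit of the sodium pump, was at 0.81 ± 0.10. Exchangers of the Slc24 family split, with the rod gene Slc24a1 at 2.30 ± 0.12 and Slc24a3 and Slc24a4 at -2.54 ± 0.17 and -2.27 ± 0.20.

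Presynaptic genes were called in both directions, and those of the receiving side in the BCL. Of 46 tested genes of the ribbon and active zone 12 were called in the ONL and 15 in the BCL, and the median was -0.24. Cplx4 and Cplx3, the complexins of ribbon synapses, went in opposite directions. Cplx4 was at 219.9, 275, 251 and 269.7 CPM in the ONL and 28.8, 63.6, 99.6 and 92.4 CPM in the BCL. Cplx3 was at 146, 169.9, 108 and 114 CPM in the ONL and 509, 499.9, 533 and 476 CPM in the BCL. Neither gene overlapped between layers, and the log2 fold changes were 1.86 ± 0.19 and -1.88 ± 0.13. Slc17a7, the vesicular glutamate transporter of both cell classes, was at 1.15 ± 0.10, Ctbp2, whose product RIBEYE builds the ribbon, at 0.72 ± 0.10, Rims2 at 0.86 ± 0.13 and the scaffold Bsn at -0.84 ± 0.12. Unc13c, a priming factor, was at -2.55 ± 0.21.

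Receptors on the receiving side gave 20 calls in the BCL and 0 in the ONL of 30 glutamate receptor genes, and 15 and 0 of 23 genes of GABA and glycine signalling. Grm6, which encodes mGluR6, was at 45.0, 23.6, 23.0 and 58.8 CPM in the ONL and 504, 486, 478 and 476 CPM in the BCL. Grik1, the kainate receptor of OFF bipolar cells, was at 54.3, 42.5, 38.4 and 69.2 CPM in the ONL and 696, 723, 612 and 629 CPM in the BCL. In both, the highest ONL sections were 1 and 4. Their log2 fold changes were -3.74 ± 0.17 and -3.75 ± 0.15, beside -4.31 ± 0.33 for Grm5, -4.21 ± 0.24 for the GABA(C) receptor subunit Gabrr1 and -3.51 ± 0.28 for the glycine receptor Glra1. Gpr179, which anchors RGS proteins to mGluR6, was at 96.7, 58.2, 53.8 and 107 CPM in the ONL and 1090.1, 1118, 1159.8 and 1169 CPM in the BCL, a log2 fold change of -3.85 ± 0.14.

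Of 20 tested genes of the mGluR6 complex and its partners 15 were called in the BCL, and 4 in the ONL. Among the latter were Lrit3 and Lrit1, leucine-rich repeat proteins that photoreceptors make. Lrit3 was at 253, 334, 297 and 256 CPM in the ONL and 33.6, 18.2, 34.8 and 27.7 CPM in the BCL. Every ONL section was higher for Lrit3, at 3.31 ± 0.23, while Lrit1 was at 0.81 ± 0.12. Lrit3 was among 84 genes called in the ONL with a log2 fold change above that of any rod phototransduction gene. Adhesion proteins of photoreceptor synapses split along the same line, with 7 of 43 called in the ONL and 29 in the BCL (19 with DESeq2). Elfn1, which photoreceptors use to bind mGluR6, was at 294, 357, 325 and 297 CPM in the ONL and 57.6, 86.3, 64.7 and 64.7 CPM in the BCL. Elfn2, its relative, was at 87.4, 58.2, 51.2 and 83.0 CPM in the ONL and 303, 291, 229 and 300.4 CPM in the BCL. These were parted without overlap at 2.21 ± 0.18 and -2.01 ± 0.17. Egflam, the pikachurin of the ribbon synapse, was at 1.92 ± 0.16, whereas its receptor Dag1 was at 164 ± 26.5 CPM in the ONL and 176 ± 26.8 CPM in the BCL and was not called. Nrxn3 and Ptprd, presynaptic organisers elsewhere in the brain, were at -3.01 ± 0.12 and -3.40 ± 0.14.

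**Figure D5:**
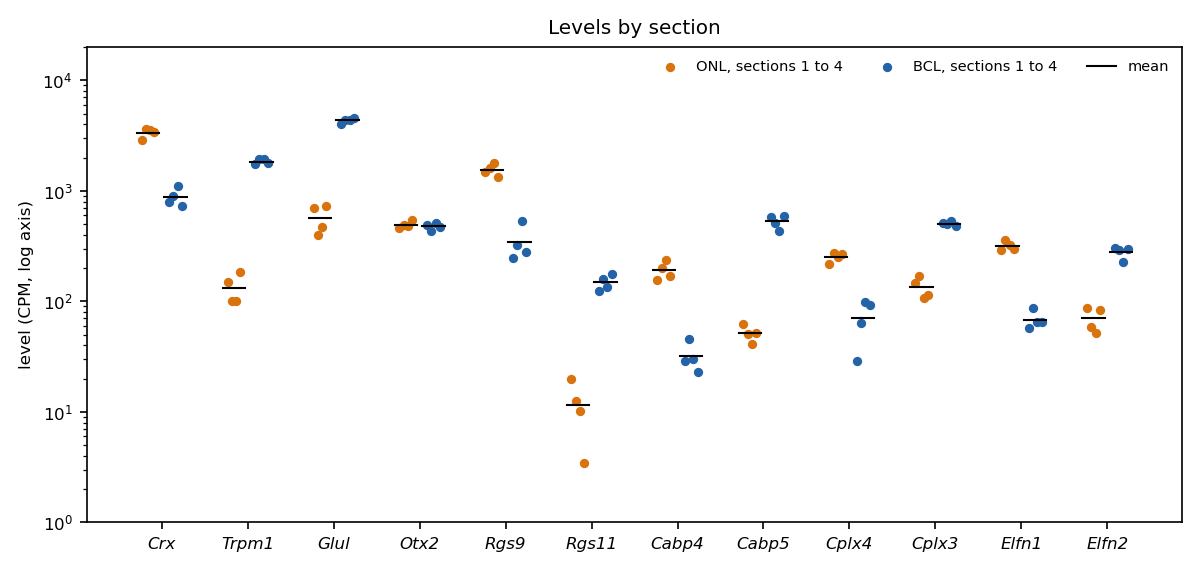
Level in each section (CPM, log axis) of 12 genes, orange for the ONL and blue for the BCL, with a bar at the mean of 4 sections. The layers do not overlap in any gene shown other than Otx2. The 2 genes of each related pair are in opposite order, and the pairs were chosen for that after their values were seen.

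Glial supply genes went with the BCL for 29 of 39 tested and with the ONL for 4. Slc1a3, the glutamate transporter of Müller glia, was at -3.06 ± 0.19, the water channel Aqp4 at -3.21 ± 0.24, the potassium channel Kcnj10 at -2.19 ± 0.21, the lipid carrier Apoe at -2.22 ± 0.16 and the intermediate filament Vim at -2.89 ± 0.19. The 4 exceptions are transporters: Slc6a6, which takes up taurine, Slc4a7, which carries bicarbonate, Slc1a2, a glutamate transporter, and Slc38a3, for glutamine, which was named after its value was seen. Slc6a6 was at 3853, 4773, 4304 and 3555 CPM in the ONL and 1844, 1659, 1867 and 1627 CPM in the BCL. Slc4a7 was at 581, 738, 681 and 650.1 CPM in the ONL and 120.1, 141, 144 and 92.4 CPM in the BCL. Both were higher in all 4 ONL sections, at 1.23 ± 0.10 and 2.41 ± 0.14, and Slc1a2 was at 0.66 ± 0.10. Over all 164 tested solute carriers 36 were called in the ONL (22.0%) and 43 in the BCL (26.2%), close to the background.

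Lipid genes were called in both layers. Of 39 tested genes of fatty acids and flippases 17 were called in the ONL and 11 in the BCL. Elovl4 and Elovl2, which extend very long polyunsaturated chains of disc membranes, were at 2.06 ± 0.13 and 1.96 ± 0.27, Agpat3, which puts such chains into phospholipid, at 2807 ± 282 CPM in the ONL and 707 ± 157 CPM in the BCL, and the flippase Atp8a2 at 1.87 ± 0.13. Cpt1a, the entry step of fatty acid oxidation in mitochondria, was at 424, 544, 540.2 and 522 CPM in the ONL and 81.6, 123, 184 and 83.2 CPM in the BCL. Fasn and Scd2, which make saturated and monounsaturated chains, were higher in the BCL at -1.16 ± 0.11 and -1.56 ± 0.11, and Acsl3, which activates them, at -2.24 ± 0.15. Fads2, a desaturase in the synthesis of polyunsaturated chains, was also higher in the BCL, at -0.81 ± 0.20. Cpt1a was higher in each ONL section, at 2.12 ± 0.15. Among 30 tested cholesterol genes 7 and 6 were called, with Vldlr, a lipoprotein receptor, at 1.49 ± 0.12, and Lrp1, another, at -1.99 ± 0.12. Defence against oxidation gave 3 calls in the ONL (9.38%) and 5 in the BCL (15.6%) of 32, below the background in each layer. The thioredoxin-like Nxnl1 and Nxnl2 of photoreceptors were at 2.57 ± 0.15 and 2.26 ± 0.32, and Prdx6 and Gstm5 at -2.39 ± 0.22 and -2.76 ± 0.44.

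In the nucleus, 20 of 60 tested genes of the lamina and heterochromatin were called in the ONL (13 with DESeq2) and 6 in the BCL (10 with library totals alone). Rod nuclei in the mouse hold their heterochromatin at the centre, and lamin A is low in them. H1f2, a linker histone, was at 344, 437, 471 and 463 CPM in the ONL and 72.0, 95.4, 124 and 83.2 CPM in the BCL. No BCL section reached an ONL section, with a log2 fold change of 2.19 ± 0.16, and Lmnb1, which encodes lamin B1, was at 2.21 ± 0.43. Cbx5, the heterochromatin protein HP1 alpha, was higher in the BCL at -1.36 ± 0.18. Syne2, which joins the nucleus to the cytoskeleton in photoreceptors, was at 1.93 ± 0.15, and Syne1 at -0.53 ± 0.13. The enzymes that oxidise methylcytosine split, with Tet3 at 1.30 ± 0.10 and Tet1 at -1.62 ± 0.16.

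Splicing regulators gave 9 and 11 calls of 55. Msi1, which drives photoreceptor exons, was at 0.89 ± 0.10, Mbnl1 at 1.57 ± 0.16 and Pcbp2 at 1.04 ± 0.11, whereas Celf3 and Nova2, neuronal regulators, were higher in the BCL. Celf3 was at 102, 53.5, 79.4 and 79.5 CPM in the ONL and 562, 691, 587 and 707 CPM in the BCL. That was -2.997 ± 0.15 on the log2 scale, and Nova2 was at -2.69 ± 0.21.

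Of 67 tested cytoskeletal genes 12 were called in the ONL (17.9%, close to the background) and 25 in the BCL (37.3%). Map1b was at 5666, 6852, 6063 and 5225 CPM in the ONL and 1878, 1927, 2384 and 2168 CPM in the BCL. Map4 was at 873, 823, 801 and 826 CPM in the ONL and 2439, 2477, 2349.5 and 2163 CPM in the BCL. Both encode microtubule-associated proteins, and their directions were opposite in each section, at 1.51 ± 0.10 and -1.51 ± 0.10. Map2 was at 1.33 ± 0.10 and Mapt, which encodes tau, at -1.80 ± 0.18. The collapsin response mediators split likewise, with Dpysl3 at 2.18 ± 0.12 and Dpysl2 at -1.64 ± 0.10.

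Surface and matrix genes were mostly called in the BCL, at 24 of 38 cadherins (3 in the ONL), 26 of 44 matrix genes (6 in the ONL), 33 of 53 guidance genes (4 in the ONL) and 12 of 15 receptor tyrosine phosphatases (1 in the ONL). Fat4, a giant cadherin, was at 38.4, 22.0, 30.7 and 34.6 CPM in the ONL and 543, 468, 553 and 425 CPM in the BCL. Reln, the secreted reelin, was at 305, 187, 159 and 228 CPM in the ONL and 1393, 1199.8, 1159.8 and 1229 CPM in the BCL. Tnr, a glycoprotein of perineuronal nets, was at 115, 45.6, 79.4 and 86.5 CPM in the ONL and 845, 836, 1080.2 and 855 CPM in the BCL. No BCL section of these 3 was as low as an ONL section, and the log2 fold changes were -4.00 ± 0.17, -2.51 ± 0.11 and -3.46 ± 0.14. Genes of these lists called in the ONL included Cdhr1, the cadherin of growing discs, at 5059, 6675, 5274 and 3790.1 CPM in the ONL and 965, 1049.8, 1643 and 818 CPM in the BCL. With it the cadherin list as a whole took 0.677% ± 0.0925% of UMIs in the ONL and 0.537% ± 0.0304% in the BCL, although most of its genes were called in the BCL. The other 2 cadherin genes were Ctnna1, a catenin, at 0.99 ± 0.23, and Pcdh15, of the calyceal processes around the outer segment, at 2.21 ± 0.13. The 6 matrix genes included the interphotoreceptor proteoglycans Impg1 and Impg2 at 2.23 ± 0.13 and 2.16 ± 0.12, Egflam, given above, the syndecan Sdc4 at 1.52 ± 0.23, and Col4a3, a basement membrane collagen with 50 UMIs in the ONL and 2 in the BCL. Among guidance receptors Plxna2 was higher in the ONL at 2.08 ± 0.13, and Plxna4 in the BCL at -3.58 ± 0.23. Slit2, a repellent, was at -3.36 ± 0.15.

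Circadian genes were called in the BCL for 10 of 21 and in the ONL for 5. Nr1d1, a repressor of the clock, was at 303, 309.9, 320.0 and 308 CPM in the ONL and 706, 636, 632 and 518 CPM in the BCL. Dbp and Hlf, output factors of the clock, were at -2.22 ± 0.22 and -2.03 ± 0.13, and Nr1d1 at -1.02 ± 0.11. Rora, an activator that opposes Nr1d1, was higher in the ONL at 0.81 ± 0.11. Of 15 tested immediate early genes 2 were called in each layer (13.3%).

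Genes in none of the lists were as far apart. Those in the ONL with the smallest adjusted p included Rtbdn, Pdzph1, Pitpnm3, Hs3st3b1, Vtn, Uhmk1, Dyrk2, Tnfaip3 and Tlcd3b, with log2 fold changes from 1.74 to 3.18. Hs3st3b1, which adds a sulfate to heparan sulfate, was at 375, 486, 497 and 408 CPM in the ONL and 38.4, 36.4, 69.7 and 50.8 CPM in the BCL. Each ONL section lay above the BCL, and Hs3st3b1 at 3.18 ± 0.18 was among the 84 ONL calls above the highest gene of the rod cascade. The 10 in the BCL with the smallest adjusted p were Lrtm1, Prox1, Ndnf, Zmiz1, Trnp1, Thsd7a, Cadps, Mpp2, Fam135b and Lactbl1, from -3.84 to -2.55. Prox1, a homeobox factor of horizontal and some bipolar cells, was at 185, 89.7, 110.1 and 149 CPM in the ONL and 1642, 1695, 1712 and 1391 CPM in the BCL. Ndnf, a secreted neurotrophic factor, was at 72.8, 33.0, 69.1 and 96.8 CPM in the ONL and 1042, 868, 841 and 883 CPM in the BCL. ONL levels of both were lowest in section 2, and the log2 fold changes were -3.61 ± 0.13 and -3.84 ± 0.14.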

How the data were processed

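UMI counts per gene were taken from the table of retinal layers that the authors deposited. Per the study's methods, UMIs and barcodes were read with UMI-tools 1.1.1, cDNA was mapped with STAR 2.7.9a to the mouse genome (GENCODE vM27 annotation, GRCm39 assembly), alignments to several places were discarded, exonic reads were assigned with featureCounts of Subread, and UMIs were deduplicated per gene. The submitters' processing notes also name SAMtools 1.9. The authors removed 2 ribosomal RNA genes. Gene lengths in bases are those in a mouse count table of the same series that the authors deposited, and no count of it was used. Libraries were grouped by layer and section from the labels, and all 12 layer columns matched a sample.

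The 8 libraries were tested with edgeR 4.0.16 in R 4.3.3 (quasi-likelihood F-test, TMM scaling, Benjamini-Hochberg adjustment), with layer and section in the design, over genes with at least 20 UMIs in all. Numbers pair the samples because same-numbered libraries came from the same section. The residual correlation of same-numbered libraries was 0.0405 to 0.0741 over 6817 genes, and that of differently numbered libraries -0.09 to 0.0803, so the pairing rests on the labels and not on these values. The common biological coefficient of variation was 8.613%. Library depth was 193869 to 801105 UMIs, and PCR duplicates were collapsed by UMI before deposit. The code was tested on simulated counts.

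Members, the 38 lists, 26 families and 12 marker lists were chosen with earlier results of these data known, and no list was tested as a set. Named genes were the defining markers, the core genes of each list, at most 3 further genes per list and direction with the smallest adjusted p among calls without overlap and with the same direction in all 4 sections, the 10 per direction in no list, and the 5 with the highest level per layer. Promoter windows were read with pysam 0.24.0 from GRCm39 at the start of the canonical transcript of GENCODE vM39, because the RefSeq promoter table at hand is on GRCm38. This differs from the plan, which named that table. Protein sequences were not used here, and some genes that this rule names are not reported here. The alternatives were DESeq2 1.42.0, other scalings, filters and fits, and each section left out.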

Additional observations from a re-analysis of the deposited data

Results flagged for a closer look

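Of 474 groups of 4 sections tested, 27 had 1 section farther from the others than Dixon's 95% critical value allows. Chance flags about 1 in 20 groups. The value given is the gap to the nearest section divided by the range of the group.

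In the ONL, section 1 was the lowest for the photoreceptor genes Pde6b (0.888), Dhrs3 (0.832) and Rp1 (0.852) and for Wdr17 (0.866) and Lars2 (0.858), and the highest for Nrxn3 (0.831), Ptprd (0.899), Kcnj10 (0.862), Acsl3 (0.936), Cbx5 (0.835) and the share of mitochondrially encoded proteins (0.851). Pde6b was at 2814 CPM there and at 3446 to 3526 in the others, and Kcnj10, a channel of Müller glia, at 71.5 against 24.2 to 30.7. ONL section 1 also had a lower share of rod markers and higher shares of bipolar and glial markers than sections 2 and 3, and their part in these values was not tested. ONL section 4 was the lowest for Ckmt1 (0.878) and Dag1 (0.848) and the highest for Vim (0.883) and Nxnl2 (0.848).

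In the BCL, section 1 was the highest for Ptprd (0.898), Pecam1 (0.97) and Cadps (0.972). Cadps, a factor for the release of dense core vesicles, was at 1407 CPM there and at 1040.0 to 1050.3 in the others, while Pecam1 rests on 7 UMIs in all. BCL section 3 was the highest for Arr3 (0.831), Agpat3 (0.854), Tnr (0.923) and Foxo3 (0.903), and the lowest for Elfn2 (0.841), and section 4 was the lowest for Gnb5 (0.927), Hk1 (0.926) and Hspa8 (0.842) and the highest for Col4a3 (1.0), with both of its 2 UMIs. Section 3 also had the highest rod marker share of the BCL. No direction or call of these genes turned on the section named, except that Dag1 changed sign without section 4 and Pecam1 was called without section 1.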

How the results depend on the processing

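Calls kept their direction: no gene called in both the main fit and an alternative changed sides. The 1737 calls in the ONL became 1014 with DESeq2 and 1031 with a log2 fold change over 1 required, and the 2064 calls in the BCL became 1302 with a minimum sum of 100 UMIs, where 5029 genes were tested. Under the other scalings, filters and fits the counts ranged from 1178 (library totals alone) to 1905 (all 12 libraries in the fit) in the ONL and from 1471 (DESeq2) to 2593 (library totals alone) in the BCL. Leaving out 1 section gave 1410 to 1555 and 1681 to 1817. Without the section block, that is without the pairing, 1701 and 2058 genes were called, of which 1666 and 2015 were called with it.

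Among the 230 genes described, Otx2 went to -0.18 with library totals alone and -0.063 with a minimum sum of 100 UMIs, and Dag1 ranged from -0.194 to 0.124 when 1 section was left out, positive without section 4. The layers were level for mt-Rnr2, at -0.01, and it changed sign, uncalled, with DESeq2 or its size factors (0.007), all 12 libraries or no low-count filter (0.049), rod genes out of the scaling (0.038) and sections left out (-0.181 to 0.069). Calls were gained by Pecam1 in the ONL (1.88, without section 1) and by Lars2 in the BCL (-0.46 with library totals alone and -0.34 with a minimum sum of 100 UMIs). The calls lost under some alternative were those of Gnb3, Slc24a2, Meis2 and Cacna2d4, and leaving out the block ended that of Cacna2d4 but of no other gene described. Of the values of genes 3152 kept their direction and their side of the threshold and 22 lost the call. Of the counts in lists 1610 stayed within 1.5 times and 182 did not. DESeq2 lowered the synaptic adhesion calls in the BCL from 29 to 19 and the nuclear lamina calls in the ONL from 20 to 13. The cause of these shifts was not tested, apart from the minimum of 100 UMIs, which tests fewer genes.

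Depth limits the low genes: 20 UMIs over 8 libraries leave a few per section, and the BCL libraries were shallower. All sections came from 1 animal, so variation between animals was not measured. The layers were drawn as areas, with each layer holding markers of the other, so fold changes describe areas and not purified cells.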

Other observations

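Genes of protein folding divided within families. Of 57 tested chaperones and folding genes of the endoplasmic reticulum 12 were called in the ONL (21.1%) and 6 in the BCL (10.5%), with a median log2 fold change of 0.13. The stress-induced HSP90 gene Hsp90aa1 was at 309, 384, 333 and 284 CPM in the ONL and 125, 155, 159 and 120.2 CPM in the BCL, whereas Hsp90ab1, the gene for the constitutive form, was at 342, 332, 309.8 and 380.4 CPM in the ONL and 562, 564, 637 and 675 CPM in the BCL. Every section put the 2 genes in opposite order between the layers, at 1.23 ± 0.15 and -0.83 ± 0.11. The small heat shock genes also split, with Hspb6 at 1.89 ± 0.13 and Cryab, the alpha-B crystallin of Müller glia, at -2.41 ± 0.40. Hspa8, the constitutive HSP70, was at -0.55 ± 0.15, and Atf4, a factor of the stress response to unfolded protein, at 1.47 ± 0.15.

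Catalytic and regulatory subunits of protein phosphatases, of which 53 were tested, gave 14 calls in the ONL (26.4%) and 6 in the BCL (11.3%). Calcineurin, the phosphatase that calcium activates, came as Ppp3cc in the ONL, at 1.62 ± 0.19, and as Ppp3ca in the BCL, at -0.96 ± 0.16. Ppp2r2b and Ppp2r5c, regulatory subunits of PP2A, were at 1.82 ± 0.15 and 1.17 ± 0.13. Motor proteins were called in both directions, with 5 kinesins in the ONL (25%) and 6 in the BCL (30%) of 20. Kif3b, a motor of intraflagellar transport, was at 1.29 ± 0.20, and Kif1a and Kif5c, which carry cargo along axons, were at -1.05 ± 0.10 and -1.77 ± 0.18. Of 35 tested Rab GTPases 2 were called in the ONL and 9 in the BCL. The 2 were Rab28, which is found in outer segments, at 1.23 ± 0.21, and Rab30 at 1.83 ± 0.24. Forkhead factors gave 3 calls in each layer of 12, with Foxo3 at 0.95 ± 0.13 and Foxn3 at -2.53 ± 0.17, and zinc finger genes named Zfp 37 in the ONL (14.6%) and 20 in the BCL (7.91%) of 253. Wdr17, a WD repeat gene, was at 619.8, 688, 678 and 685 CPM in the ONL and 91.2, 114, 214 and 97.1 CPM in the BCL, without overlap between layers. Of the 43 tested WD repeat genes 9 were called in the ONL and 4 in the BCL.

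The genes with the highest levels differed in kind. In the ONL they included mt-Rnr2, Sag, Gnat1 and Gnb1, which apart from mt-Rnr2 are rod genes. In the BCL they were mt-Rnr2, Lars2, mt-Co1, mt-Cytb and mt-Nd1. The mitochondrial ribosomal RNA mt-Rnr2 was at 16771 ± 1955 CPM in the ONL and 16872 ± 2055 CPM in the BCL, and Lars2, a nuclear gene for the mitochondrial leucyl-tRNA synthetase, at 7401 ± 582 CPM and 8714 ± 1145 CPM. Neither was called, although Lars2 was called in the BCL with library totals alone. These levels are per library and not per length.

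Of the genes called in the ONL 1657 are annotated as protein coding and 48 as long noncoding RNA, against 2014 and 29 of those called in the BCL and 9560 and 190 of all genes tested. The median annotated length was 5684 bases among genes called in the ONL, 5832 in the BCL and 5148 over all genes tested, so both sets of calls were longer than the whole. Longer genes tend to collect more reads, and the part of length in the calls was not tested.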
